A study of Mus musculus with 6 samples.

Results

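Transcripts of 10 genes of necroptosis and inflammatory cell death (*Zbp1*, *Ripk1*, *Ripk3*, *Mlkl*, *Casp8*, *Fadd*, *Casp1*, *Casp4*, *Gsdmd* and *Pycard*) were examined in adult mouse brain. They were taken by gene symbol from a count table of 37310 genes, and all 10 were present. Whole brain came from 12-week-old male C57BL/6 mice of 2 genotypes, with 3 biological replicates and 1 ribosome-depleted RNA library per replicate. One genotype was *Adar1* E861A/E861A *Ifih1*-/-, homozygous for a point mutation that inactivates the RNA editing activity of ADAR1. The other was *Adar1* +/+ *Ifih1*-/-, referred to as wild type. Mice of both genotypes therefore lacked MDA5, the cytosolic sensor of double-stranded RNA encoded by *Ifih1*. Mice with intact MDA5 were not analysed here, so the comparison is between genotypes that both lack it.

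ZBP1 is a cytosolic sensor that binds nucleic acids in the left-handed Z form through its Zα domains, a type of domain otherwise found in mammals in the interferon-inducible isoform of ADAR1. Through RHIM motifs, ZBP1 engages RIPK3 and RIPK1. RIPK3 phosphorylates MLKL, which then disrupts the plasma membrane (necroptosis), whereas FADD and caspase-8 drive apoptosis and restrain necroptosis. In the inflammasome pathway, the adaptor ASC (encoded by *Pycard*) brings caspase-1 to sensor proteins, caspase-4 (mouse caspase-11) responds to cytosolic lipopolysaccharide, and both caspases cleave gasdermin D to form pores (pyroptosis). In brain, inflammasome genes are best known from microglia, and *Zbp1* is known as a gene induced by interferon.

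*Zbp1* rose 7.38-fold in *Adar1* E861A brain, and no other gene of the 10 passed the test. Library depth was 26853488 to 38076753 counts, and counts of the 10 genes ran from 1 to 238 per library, so all are low-abundance transcripts in whole brain. Levels are given as CPM, the usual scaling of a count to the total of its library. Both tests below are edgeR quasi-likelihood fits. *Ripk1* and *Pycard* had at least 2 CPM in 3 of 3 libraries of a genotype and were tested among the 13649 genes that did. *Zbp1*, *Mlkl*, *Casp8*, *Fadd*, *Casp1*, *Casp4* and *Gsdmd* were tested among 19366 genes kept by edgeR's filterByExpr. *Ripk3* failed both filters, and *Pycard* passed the first through the mutant libraries, since wild-type replicates 1 and 2 were under 2 CPM. A gene was called at an adjusted p (Benjamini-Hochberg over all genes of the fit) under 0.05. Both fits called few genes, 0.506% of those tested in the first and 0.568% in the second. With the replicate number as a block these counts rose from 69 to 158 and from 110 to 233. Without *Adar1* E861A replicate 3 the counts were 42 and 63, and without replicate 2 of that genotype they were 111 and 187. Without wild-type replicate 2 the first was 104.

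The libraries and genotypes were checked first. The *Adar* transcript was present at 161 ± 8.98 CPM in *Adar1* E861A and 150.5 ± 29.9 CPM in wild type (SD, n = 3), and a point mutation cannot be seen in counts. *Ifih1* transcript was still counted although the gene is disrupted, at 1.53 ± 0.107 CPM in *Adar1* E861A and 1.19 ± 0.118 CPM in wild type. All markers in the neuron, astrocyte, oligodendrocyte and microglia lists were detected, as in brain tissue. *Adar1* E861A replicate 1 stood apart in pituitary markers, whose summed level was 439.8 CPM there and 1.97 to 3.64 CPM in the other 5 libraries. *Adar1* E861A replicate 3 was highest in markers of neutrophils and infiltrating myeloid cells, with a sum of 14.6 CPM against 2.52 to 5.85 CPM elsewhere. The log2 fold changes of *Zbp1* and *Casp4* are given with and without each of these libraries. Most other results are given with all libraries only.

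*Zbp1* (ENSMUSG00000027514; NCBIM37 chromosome 2, 173032113 to 173044424, minus strand) had 21, 38 and 30 counts in the mutant libraries against 7, 1 and 6, in replicate order. These are 0.727, 1.05 and 1.12 CPM against 0.194, 0.0263 and 0.168 CPM. The lowest mutant library was thus well above the highest wild-type library, and the wild-type library with a single count was the lowest of all. The mean was 0.964 ± 0.208 CPM in *Adar1* E861A and 0.129 ± 0.0901 CPM in wild type (SD, n = 3). The log2 fold change was 2.88 ± 0.41 (SE), with a 95% interval of 4.05-fold to 13.4-fold and an adjusted p of 0.00103 by the edgeR quasi-likelihood test. The exact two-sided permutation test of the CPM values gave p = 0.1, the smallest that 3 against 3 libraries allow. Pooled over libraries, 89 counts stood against 14, a ratio of 7.6 with an exact 95% interval of 4.3 to 14.5 that covers counting error only. Ranges of CPM did not overlap for 13.2% of the 19366 genes, with the mutant higher for 7.25%, so such a separation alone is common. In bulk tissue, a higher level in each expressing cell and a larger number of expressing cells cannot be told apart.

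*Zbp1* passed the filter on low counts through the mutant libraries, since its wild-type level was under that filter. It did not reach the 2 CPM that *Ripk1* and *Pycard* reached. Its rise was present in each omission of 1 library, with adjusted p from 0.000862 to 0.0222. Without *Adar1* E861A replicate 1, the library with pituitary transcripts, the log2 fold change was 3.06. Without replicate 3, the library with the most neutrophil transcripts, it was 2.78 (adjusted p 0.0222), the highest adjusted p of the 6 omissions. No stretch of 75 bases of *Zbp1* coding transcripts, the read length, occurred in a coding transcript of another gene, and no exon of another gene overlapped its exons.

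**Figure D1:**
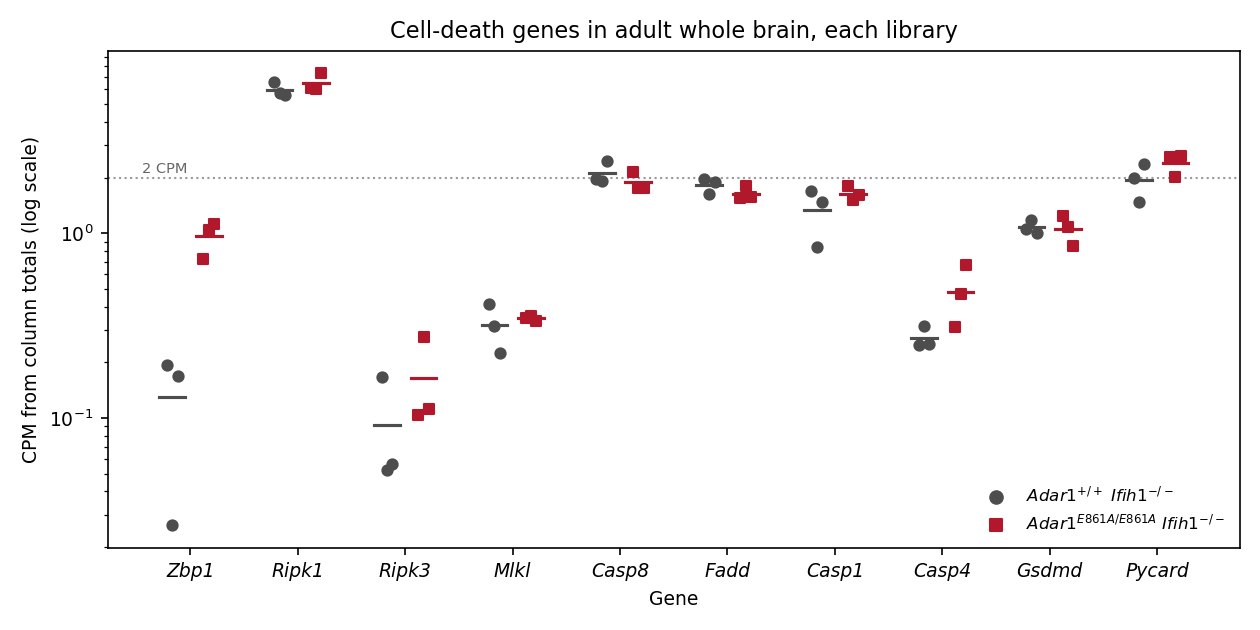
CPM (y axis, log scale) for each of the 10 genes (x axis), with 1 point per library, grey circles for wild-type and red squares for *Adar1* E861A brain, and a bar at each mean. *Zbp1* is the 1 gene whose libraries separate by genotype, from 0.727 to 1.12 CPM in *Adar1* E861A and from 0.0263 to 0.194 CPM in wild type. Such a separation is common, as CPM ranges did not overlap for 13.2% of the 19366 genes kept by filterByExpr.

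The kinases and the executioner of necroptosis were described next, as the partners through which ZBP1 acts. *Ripk1* (ENSMUSG00000021408; chromosome 13, 34094232 to 34127039, plus strand), which encodes a kinase and scaffold shared by survival, apoptotic and necroptotic signalling, had the most counts of the 10 genes. Its counts were 176, 218 and 197 in the mutant against 238, 219 and 201 in wild type, or 6.1, 6.01 and 7.34 CPM against 6.58, 5.75 and 5.63 CPM. The genotypes overlapped, and mutant replicate 3 was the highest library. *Ripk1* differed by 0.11 ± 0.11 on the log2 scale (adjusted p 0.81, edgeR quasi-likelihood test), and the 95% interval ran from 0.911-fold to 1.28-fold. Without mutant replicate 3 the difference was 0.01. Of the 6138 exonic bases of *Ripk1*, 2108 are shared with *Gm17084* on the same strand and 241 with *Serpinb6a* on the opposite strand, and 3.5% of the 75-base stretches of its coding transcripts also occur in *Serpinb6a*, so its count may leave out reads that could not be assigned to 1 gene.

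Promoter windows were read for 8 of the 10 genes from a RefSeq table of build GRCm38.p6, covering 250 bases before to 50 after a start site, and located in NCBIM37 by exact match. *Zbp1* and *Gsdmd* were the 2 genes without an entry. Both strands were searched for the core of the interferon-stimulated response element (GAAA and a second GAAA with 2 bases between them) and for the NF-κB consensus. The interferon element core was present in 1 of the 8 genes and in 3.99% of the 27025 genes of the table, against 16 of 23 interferon-stimulated reference genes with an entry. The NF-κB consensus was present in 1 of the 8 genes and 9.55% of all. *Ripk1* held the interferon element core once, in the window of its second listed start site. That window is shown as the only one of the 8 genes with an interferon element core, with the match in capitals. A match is a description of the letters and does not show binding.

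Ripk1, chr13:34094493-34094792, plus strand: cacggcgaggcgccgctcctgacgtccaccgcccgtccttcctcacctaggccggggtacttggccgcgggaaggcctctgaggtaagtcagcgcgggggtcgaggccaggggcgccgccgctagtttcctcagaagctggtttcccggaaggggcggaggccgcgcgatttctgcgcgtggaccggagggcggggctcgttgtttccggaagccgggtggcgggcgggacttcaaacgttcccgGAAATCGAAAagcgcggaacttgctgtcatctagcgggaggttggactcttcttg

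*Ripk3* (ENSMUSG00000022221; chromosome 14, 56403833 to 56407694, minus strand), the kinase that activates MLKL, was close to the limit of detection. Its counts were 3, 10 and 3 in the mutant against 6, 2 and 2 in wild type, or 0.164 ± 0.097 CPM against 0.0915 ± 0.0645 CPM (SD, n = 3). The genotypes overlapped and mutant replicate 2 held most of the mutant counts. The pooled ratio of 16 to 10 counts was 1.91, with a 95% interval of 0.816 to 4.71 for counting error alone, so a rise of several fold could not be told from no change at this depth. Without any filter, where 29282 genes entered, its log2 fold change was 0.89 ± 0.67 (adjusted p 0.84).

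*Mlkl* (ENSMUSG00000012519; chromosome 8, 113835697 to 113862077, minus strand), the executioner of necroptosis, had 10, 13 and 9 counts against 15, 12 and 8. These are 0.346, 0.358 and 0.335 CPM in *Adar1* E861A and 0.415, 0.315 and 0.224 CPM in wild type. The mutant libraries lay inside the range of the wild-type libraries. Its log2 fold change was 0.12 ± 0.35 (adjusted p 0.955, edgeR quasi-likelihood test) with a 95% interval of 0.652-fold to 1.81-fold, and its sign turned to -0.07 without wild-type replicate 3.

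The adaptor and caspase that link death receptors to apoptosis did not pass the test. *Casp8* (ENSMUSG00000026029; chromosome 1, 58852218 to 58904347, plus strand) had 62, 64 and 47 counts in *Adar1* E861A and 71, 73 and 88 in wild type, or 2.15, 1.76 and 1.75 CPM against 1.96, 1.92 and 2.47 CPM. *Fadd* (ENSMUSG00000031077; chromosome 7, 151763223 to 151768368, minus strand) had 45, 65 and 42 counts against 71, 62 and 68, or 1.56, 1.79 and 1.56 CPM against 1.96, 1.63 and 1.91 CPM. Both overlapped between genotypes, with means slightly lower in the mutant. For *Casp8* the log2 fold change was -0.17 ± 0.17 (adjusted p 0.843, edgeR quasi-likelihood test), with a 95% interval of 0.688-fold to 1.15-fold. That of *Fadd* was -0.16 ± 0.18 (adjusted p 0.859, same test), with an interval of 0.693-fold to 1.16-fold. These intervals leave out a doubling of either transcript. Of the 75-base stretches of *Fadd*, 0.548% also occur in coding transcripts of other genes. Of its 3903 exonic bases, 239 are shared with *Gm10574* on the opposite strand.

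**Figure D2:**
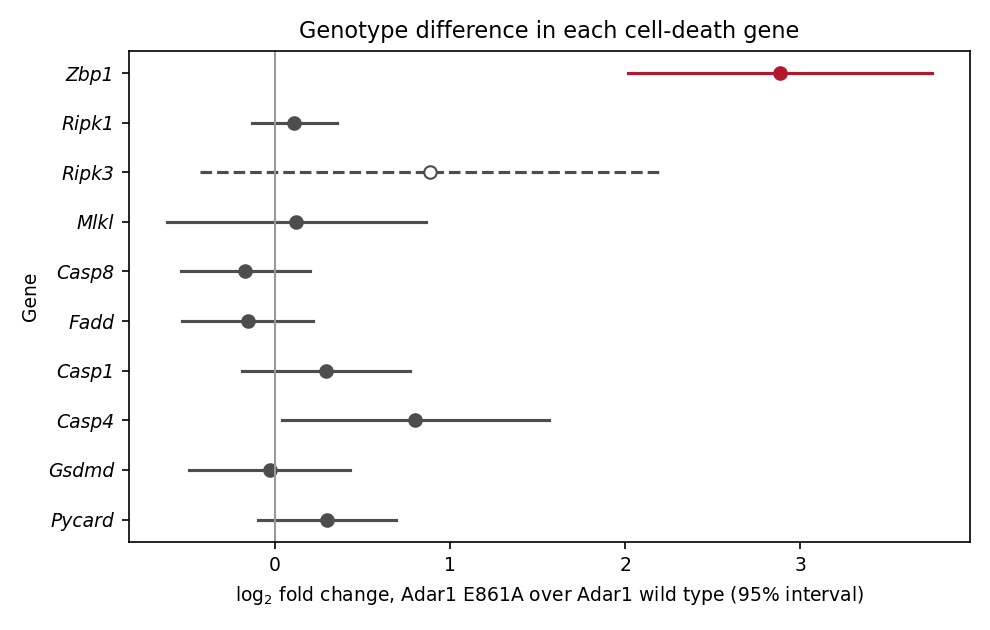
Log2 fold change of *Adar1* E861A over wild-type brain (x axis) for each of the 10 genes (y axis), with 95% intervals. The interval of *Zbp1* (red, adjusted p under 0.05) lies between 2.02 and 3.75. It is right of the intervals of the other 8 tested genes, of which *Casp4* reaches highest at 1.56. The dashed interval is *Ripk3* in the fit without a filter, from -0.426 to 2.2, and it overlaps that of *Zbp1*.

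Of the inflammatory caspases, *Casp4* had the next largest difference after *Zbp1* among the tested genes, but it did not pass the test. *Casp4* (ENSMUSG00000033538; chromosome 9, 5308828 to 5336783, plus strand) had 9, 17 and 18 counts in *Adar1* E861A and 9, 12 and 9 in wild type, or 0.312, 0.469 and 0.67 CPM against 0.249, 0.315 and 0.252 CPM. The genotypes overlapped only where mutant replicate 1 lay just under wild-type replicate 2. Its log2 fold change was 0.80 ± 0.36, with an unadjusted p of 0.0405, an adjusted p of 0.584 (edgeR quasi-likelihood test) and a 95% interval of 1.03-fold to 2.95-fold. By DESeq2 and by limma-voom its unadjusted p was not under 0.05. Without *Adar1* E861A replicate 1, the library with pituitary transcripts, the log2 fold change was 1.03. The value leaned on *Adar1* E861A replicate 3, without which it was 0.53. That library also had the highest sum of neutrophil markers, and the part of these cells in the *Casp4* value was not tested.

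*Casp4* was the only one of the 8 genes with the NF-κB consensus, at 3 positions of which 2 overlap. Its window is shown for that reason, with the matches in capitals, and a second listed start site holds the same 3 matches.

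Casp4, chr9:5308599-5308898, plus strand: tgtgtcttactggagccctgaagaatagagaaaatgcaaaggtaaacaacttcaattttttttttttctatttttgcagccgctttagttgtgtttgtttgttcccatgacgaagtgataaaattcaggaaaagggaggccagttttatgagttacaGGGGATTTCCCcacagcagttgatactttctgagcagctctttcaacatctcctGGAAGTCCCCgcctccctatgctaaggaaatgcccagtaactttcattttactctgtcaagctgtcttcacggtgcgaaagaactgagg

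*Casp1* (ENSMUSG00000025888; chromosome 9, 5298517 to 5307265, plus strand), which encodes the protease that matures interleukin-1β and interleukin-18, lies 1563 bases from *Casp4*. It had 52, 55 and 43 counts in *Adar1* E861A and 61, 32 and 53 in wild type, or 1.8, 1.52 and 1.6 CPM against 1.69, 0.84 and 1.49 CPM. Wild-type replicate 2 was the lowest library and the others overlapped. Its difference was 0.29 ± 0.23 on the log2 scale (adjusted p 0.782, edgeR quasi-likelihood test; 95% interval 0.879-fold to 1.7-fold), and it was 0.05 without that library. No 75-base stretch of the coding transcripts of *Casp1* and *Casp4* was shared with each other or with another gene.

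*Pycard* (ENSMUSG00000030793; chromosome 7, 135135617 to 135137381, minus strand), which encodes the adaptor ASC, had 75, 73 and 70 counts in *Adar1* E861A and 72, 56 and 85 in wild type. These are 2.6, 2.01 and 2.61 CPM against 1.99, 1.47 and 2.38 CPM, and the genotypes overlapped, with *Adar1* E861A replicate 2 just past the 2 CPM filter. The log2 fold change was 0.30 ± 0.18 (adjusted p 0.662, edgeR quasi-likelihood test), with an interval of 0.936-fold to 1.61-fold. *Gsdmd* (ENSMUSG00000022575; chromosome 15, 75692769 to 75697834, plus strand), which encodes the pore-forming gasdermin D, had 36, 39 and 23 counts against 38, 45 and 36, or 1.25, 1.07 and 0.856 CPM against 1.05, 1.18 and 1.01 CPM. Mutant replicates were both the highest and the lowest libraries. Its log2 fold change was -0.03 ± 0.22 (adjusted p 0.985, same test), with an interval of 0.711-fold to 1.35-fold.

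Of the 10 genes, the 7 with a higher mean CPM in *Adar1* E861A included *Zbp1*, and the 3 with a lower mean were *Casp8*, *Fadd* and *Gsdmd*. Across the 9 genes other than *Zbp1*, summed levels were 16.2, 15.3 and 16.8 CPM in *Adar1* E861A replicates 1 to 3 and 16.1, 13.5 and 15.4 CPM in wild type, and these ranges overlapped. Of the 9 genes tested, 1 was called, and it was higher in the mutant, as were 0.449% of the 19366 genes. Since the genes were chosen with earlier results of these data known, this count is a description.

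Levels per kilobase of exon were used to compare the genes with each other. In wild-type brain *Zbp1* had the lowest mean of the 10 genes, 0.0366 ± 0.0255 CPM per kilobase (SD, n = 3). *Ripk3* at 0.0466 ± 0.0328 and *Casp4* at 0.0733 ± 0.0101 CPM per kilobase were next, and neighbours in this order overlapped. *Mlkl* followed at 0.138 ± 0.0414 CPM per kilobase. At the upper end in wild type were *Pycard* (1.39 ± 0.325), *Ripk1* (0.975 ± 0.0841) and *Casp1* (0.893 ± 0.295 CPM per kilobase), and the libraries of each overlapped with those of the next. The place of *Ripk1* is uncertain in both genotypes, since its length includes the 2108 bases shared with *Gm17084*, whose reads may not be counted. *Casp8* at 0.762 ± 0.109, *Gsdmd* at 0.608 ± 0.051 and *Fadd* at 0.469 ± 0.0458 CPM per kilobase lay between.

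In *Adar1* E861A brain *Zbp1* reached 0.273 ± 0.0589 CPM per kilobase. It thereby moved above *Mlkl* (0.15 ± 0.00502), *Casp4* (0.13 ± 0.0485) and *Ripk3* (0.0834 ± 0.0494 CPM per kilobase), and its 3 libraries overlapped with none of those of *Mlkl*, the next lower gene. It stayed under *Fadd* (0.42 ± 0.034 CPM per kilobase), without overlap. The levels of *Pycard* (1.71 ± 0.243), *Casp1* (1.1 ± 0.0978), *Ripk1* (1.06 ± 0.121), *Casp8* (0.68 ± 0.0812) and *Gsdmd* (0.597 ± 0.11 CPM per kilobase) completed the order.

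**Figure D3:**
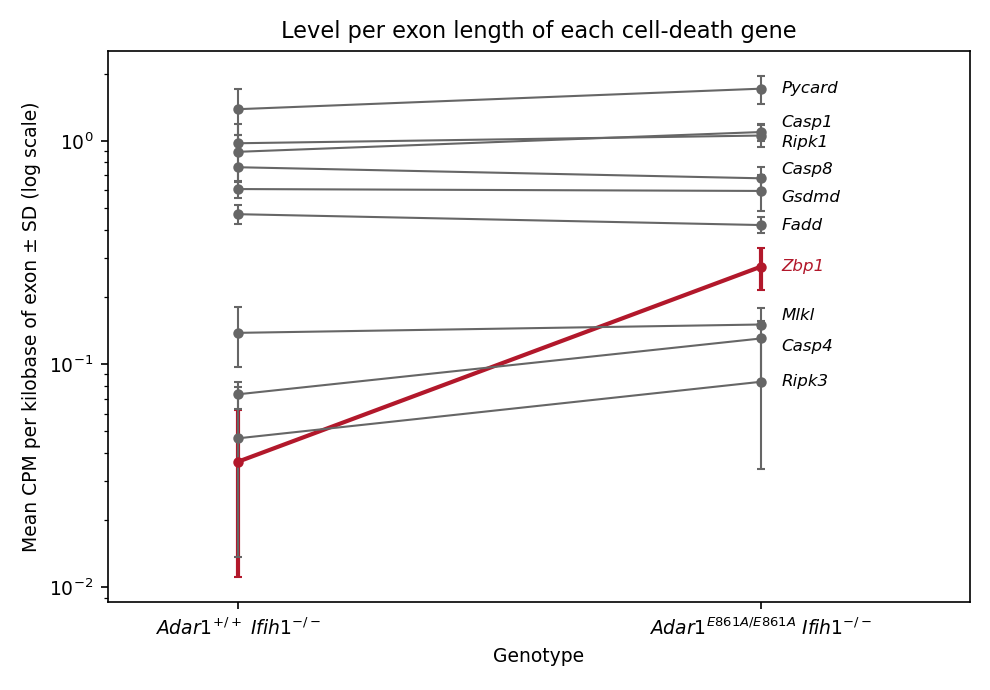
Mean CPM per kilobase of exon (y axis, log scale) of the 10 genes in both genotypes (x axis), with lines joining the means of 1 gene and bars for the SD of 3 libraries. *Zbp1* (red) goes from 0.0366 CPM per kilobase, the lowest mean in wild type, to 0.273 in *Adar1* E861A, above *Mlkl*, *Casp4* and *Ripk3*.

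Further genes of these pathways were taken from lists written by pathway membership. The necroptosis signalling list held death receptors and their ligands, ubiquitin ligases, deubiquitinases, kinases and other genes such as *Tlr3*, *Cflar*, *Pgam5* and *Chmp4b*. Of its 37 matched genes, 35 were tested and 0 were called. The median log2 fold change was 0.008, where that of all 19366 genes was 0. At an unadjusted p under 0.05 there were 5 genes by the edgeR quasi-likelihood test and by limma-voom and 4 by DESeq2, named here after their values were seen. They were *Birc2* (log2 fold change 0.15 ± 0.06), *Cyld* (0.11 ± 0.05), *Chuk* (0.17 ± 0.06), *Tnfsf10* (0.56 ± 0.20) and *Spata2* (-0.13 ± 0.06). *Tnfsf10*, which encodes the death ligand TRAIL and is known as interferon-inducible, had 49, 81 and 70 counts in *Adar1* E861A and 65, 50 and 47 in wild type, with an adjusted p of 0.439 by the quasi-likelihood test. *Tnf*, the ligand that starts necroptosis through TNFR1, had 0 to 2 counts per library, where a count of 0 allows up to 0.0788 to 0.112 CPM. *Cflar*, the inhibitor of caspase-8 that lies next to *Casp8*, had a log2 fold change of 0.10 ± 0.06 (adjusted p 0.738).

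In the inflammasome and pyroptosis list, 23 of 32 genes were tested and 0 were called, and the middle value on the log2 scale was -0.018. At an unadjusted p under 0.05 the quasi-likelihood test and limma-voom gave 2 genes and DESeq2 gave 1. *Nlrp3*, the sensor of a microglial inflammasome, had 22, 36 and 25 counts in *Adar1* E861A and 18, 21 and 19 in wild type, and these did not overlap after scaling for depth. Its log2 fold change was 0.76 ± 0.25 with an adjusted p of 0.365. *Nlrp10* had a log2 fold change of -0.50 ± 0.22 and an adjusted p of 0.572. *Il1b* had 5, 11 and 6 counts against 5, 4 and 6 and failed the filter. After scaling it did not overlap either, at 0.173, 0.303 and 0.223 CPM against 0.138, 0.105 and 0.168 CPM. Its pooled ratio was 1.75, with a 95% interval of 0.869 to 3.63 for counting error alone. Ranges of CPM did not overlap for 13.2% of the 19366 genes. *Aim2*, the sensor of cytosolic DNA, was at 3.76 ± 0.483 CPM in *Adar1* E861A and 3.27 ± 0.491 CPM in wild type (SD, n = 3; adjusted p 0.776). *Casp12*, a paralogue of *Casp1* and *Casp4*, had a log2 fold change of 0.04 ± 0.19.

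In the apoptosis machinery list, 28 of 30 genes were tested and 0 were called, at a median of -0.041 on the log2 scale. The quasi-likelihood test, DESeq2 and limma-voom each gave 1 gene at an unadjusted p under 0.05, *Bok*, a member of the BCL-2 family (log2 fold change -0.26 ± 0.08, adjusted p 0.267). Over all genes, 8.13% had an unadjusted p under 0.05 by the quasi-likelihood test. In the 3 lists the share was 14.3%, 8.7% and 3.57%. Under the replicate block it was 13.2% over all genes and 14.3%, 13% and 14.3% in the lists, so the order of these shares depended on the block.

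For reference, a list of 32 interferon-stimulated genes had 26 called, all higher in *Adar1* E861A, and a median log2 fold change of 1.26. This list was written with the rise of such genes in these libraries already known. *Zbp1*, at 2.88, had a larger point estimate than each of the 32, but its 95% interval of 2.02 to 3.75 held the next values, 2.78 for *Ifi44* and 2.67 for *Oas1a*. Without wild-type replicate 2 it was 2.40. It ranked 3rd by fold among the 87 genes called higher in the fit, and its p-value ranked 43rd among all 19366 genes. The genes whose log2 CPM (prior count 2) followed *Zbp1* most closely over the 6 libraries were *AI607873*, *4921507P07Rik*, *AC160635.1*, *2610316D01Rik* and *Dock2*, with Pearson r of 0.999, 0.998, 0.997, 0.992 and 0.987. Of these, *AI607873* was called (log2 fold change 1.39, adjusted p 0.0424), and the others had log2 fold changes of 0.33 to 0.61 without a call. These values of r rest on 6 points in 2 groups and on low counts.

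**Figure D4:**
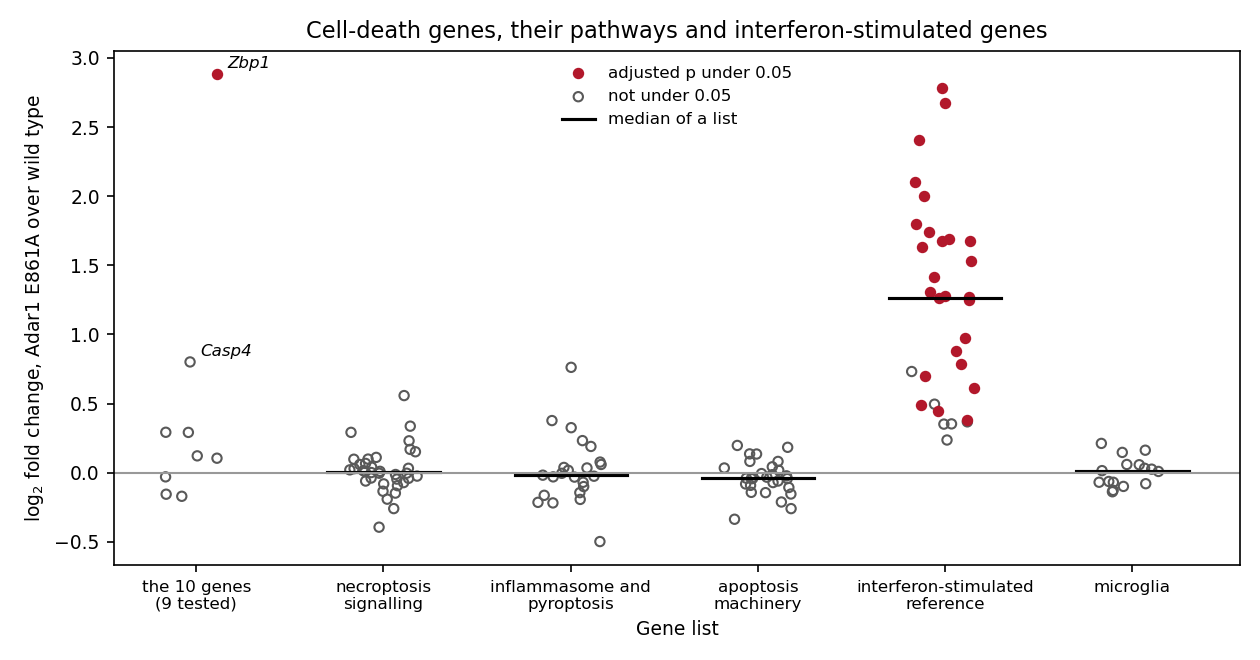
Log2 fold change of *Adar1* E861A over wild type (y axis) in the fit of 19366 genes, 1 point per tested gene, for the 10 genes and 5 lists (x axis), with filled red points for an adjusted p under 0.05 and a bar at the median of each list. *Zbp1*, at 2.88, lies just above the highest gene of the interferon-stimulated list (median 1.26), while the medians of the necroptosis, inflammasome, apoptosis and microglia lists lie between -0.041 and 0.012.

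Markers of the cell types that could carry these transcripts were measured in the same libraries. Of 16 microglia markers, 0 were called by the quasi-likelihood test, DESeq2 or limma-voom, and 1, 0 and 2 respectively had an unadjusted p under 0.05. Their summed level was 237.5 to 250.3 CPM in *Adar1* E861A and 244 to 253 CPM in wild type. Of 12 markers of neutrophils and infiltrating myeloid cells, 6 were tested and 0 were called by the quasi-likelihood test, DESeq2 or limma-voom, although 4 (*S100a8*, *S100a9*, *Ngp* and *Ltf*) had an unadjusted p under 0.05 by the quasi-likelihood test, 3 did by DESeq2 and 3 by limma-voom, and the 4 were called under the replicate block. The likelihood ratio test called 1, and without a filter 4 of the 12 were called. Among the tested markers, *Ccr2* had a log2 fold change of 0.13 ± 0.31, and *Lcn2* went the other way at -0.68 ± 0.52. The 12 markers summed to 5.85, 3.47 and 14.6 CPM in *Adar1* E861A replicates 1 to 3 and 2.52, 3.15 and 5.27 CPM in wild type. The part of these cells in the value of *Zbp1* was not tested, beyond the omission of replicate 3 given above. Lymphocyte markers summed to 4.24 to 4.82 CPM in *Adar1* E861A and 4.12 to 4.56 CPM in wild type.

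Endothelial markers summed to 132 to 163 CPM in the mutant and 167 to 201 CPM in wild type, without overlap. All 10 had a negative log2 fold change, and *Flt1* was called among the 19366 genes (-0.38 ± 0.08, adjusted p 0.0445) but not among the 13649 (adjusted p 0.0817). At an unadjusted p under 0.05 there were 6 of the 10 (60%), all lower, by the quasi-likelihood test, by DESeq2 and by limma-voom. Over all genes the share was 8.13% by the quasi-likelihood test. Without a filter 5 of the 10 were called. Choroid plexus markers summed to 250.5 to 362 CPM in the mutant against 420 to 438 CPM in wild type. The lowest sum was that of mutant replicate 1, the library with pituitary transcripts. *Ttr* made up most of the sums, at 183, 274 and 286 CPM against 365, 341 and 359 CPM. Of the 8 markers, 1 (*Kcnj13*) had a positive log2 fold change (0.11 ± 0.16). The quasi-likelihood test called 0 of 8, with 2 of 8 at an unadjusted p under 0.05, and DESeq2 and limma-voom called 0 and 1. Astrocyte markers summed to 5657 to 5932 CPM in the mutant and 5036 to 5315 CPM in wild type, and neuron markers to 4553 to 4680 CPM and 4728 to 4792 CPM, both without overlap. Most of the astrocyte sum was *Slc1a2*, at 4137, 4261 and 4098 CPM in the mutant and 3488, 3680 and 3722 CPM in wild type. The median log2 fold change of the 8 astrocyte markers was 0.019, and 6 were positive. Of the 8 astrocyte markers 0 were called by the quasi-likelihood test, with 1 (*Slc1a2*) at an unadjusted p under 0.05. DESeq2 called *Slc1a2*, and 1 marker was called under the block. All 9 neuron markers had a negative log2 fold change and 0 were called by the quasi-likelihood test, DESeq2 or limma-voom, each with 2 at an unadjusted p under 0.05. The part of these cell types in the values of the 10 genes was not tested.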

How the data were processed

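Read processing was taken from the publication and the submitters' processing notes, which name Trimmomatic 0.36, STAR 2.5.2a and mm9. Paired-end reads of 75 bases were aligned to NCBIM37 and counted per gene by STAR, and the authors deposited raw counts without pooling replicates. The strand setting of the counts is not given in the sources used here, so overlapping genes are uncertain. The deposited CPM tables and the authors' own comparison (fold change and false discovery rate) were not used. Coordinates and exon lengths came from GENCODE vM1, which held all 37310 gene identifiers.

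Tests were run on the deposited counts with edgeR 4.0.16 in R 4.3.3 (TMM scaling, glmQLFit and glmQLFTest, no covariates) after 2 filters: at least 2 CPM in 3 of 3 libraries of either genotype, and filterByExpr, whose TMM factors ran from 0.979 to 1.03. Standard errors are the absolute log2 fold change over the square root of F. The script was tested on simulated data. Floors (3 counts) and ratios of pooled counts describe counting error alone, as reads carried no molecular identifiers. Same-numbered libraries deviated together over the 13649 genes (r 0.221, 0.329 and 0.112), and no source says what a number shares. Differently numbered libraries had r from -0.255 to 0.052 there. Over 19366 genes r was 0.098, 0.203 and 0.056 for the same number and -0.163 to 0.069 for different numbers. Deviations were taken from the mean of each genotype, so these values of r are not independent of each other. The main fits had no block, so their standard errors and p-values do not use any pairing. The replicate number entered as a block in an alternative fit only. Alternatives were RLE or no scaling, DESeq2 1.42.0, a likelihood ratio test, limma-voom (limma 3.58.1), no filter, the replicate block and omission of each library. The 10 genes and the lists were chosen with earlier results of these data known. The naming rule comprised the 10 genes, called genes of each pathway list (the 5 smallest p) and the 5 genes closest to *Zbp1*. Of 226 list symbols, 3 had no match. Amino acid sequences were not analysed here.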

Additional observations from a re-analysis of the deposited data

How the results depend on the processing

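The call of *Zbp1* and the absence of other calls among the tested genes of the 10 held under RLE size factors, no scaling, DESeq2, the likelihood ratio test, limma-voom, no filter, the replicate block and each omission of 1 library, with 1 gene called in each. Under the filter of 2 CPM, *Zbp1* is not tested and 0 of the 10 were called, because that filter leaves *Ripk1* and *Pycard* only. The log2 fold change of *Zbp1* ran from 2.88 to 3.08 over those fits (adjusted p 1.61e-11 to 0.00337) and from 2.4 to 3.28 over the omissions. With the replicate number as a block it was 2.89 (adjusted p 0.00133), and the block changed no call among the 10 genes or the necroptosis, inflammasome and apoptosis lists, where 0 genes were called in every fit and omission. With no filter, edgeR set each quasi-dispersion to its trend (infinite prior degrees of freedom), so the very small p there does not use the spread of *Zbp1* itself. Signs turned for *Mlkl*, from -0.0713 (without wild-type replicate 3) to 0.34 over the omissions, and for *Gsdmd*, from -0.136 to 0.0849 (without *Adar1* E861A replicate 3; 0.0552 without wild-type replicate 2); the cause was not tested. *Ripk3* had too few counts for either filter, and differences under about the width of the intervals given for each gene could have been missed.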
